A study of Mus musculus with 6 samples.

Results

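The 32 genes described here are genes of sterol and fatty acid metabolism, measured in cultures of mouse macrophages derived from bone marrow. They were taken by symbol from the 55023 entries of the deposited table, and 19 of them form a class of cholesterol synthesis and SREBP2-type genes, while 13 form a class of LXR targets and lipogenic genes. All 32 were found and passed the filter on low counts, which left 18812 genes for the tests. The cells were treated in culture for 24 h in 3 groups of 2 libraries each. The first group received LCL161, a compound that mimics SMAC and removes cellular IAP proteins, together with LTα1β2, the lymphotoxin ligand of the LTβ receptor. The second group received LTα1β2 alone, and the third received vehicle. A group with LCL161 alone was not analysed here, so LCL161 is compared only in the presence of LTα1β2. The labels read here give no strain, age or sex and do not say if replicates came from different mice or dishes. Every p-value thus rests on the spread between libraries of a group, and that spread may be technical.

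Total counts were 14718368 and 14991252 with LCL161 plus LTα1β2, 15958418 and 19049613 with LTα1β2 alone, and 18860062 and 16902717 with vehicle. All 8 macrophage markers could be tested, and their summed level, most of it from Lyz2, was 32800 and 34300 CPM with LCL161 plus LTα1β2, 33200 and 32400 CPM with LTα1β2 alone, and 27600 and 34000 CPM with vehicle, where CPM are counts scaled to a common library size with TMM factors. Single macrophage markers moved in both directions: 6 rose and none fell with LTα1β2 alone against vehicle, 3 rose and 3 fell (Csf1r, Itgam and Fcgr1) with LCL161 plus LTα1β2 against LTα1β2 alone, and 4 rose and Itgam fell with LCL161 plus LTα1β2 against vehicle. Over all genes tested, 12.8% rose and 10.6% fell in the first of these comparisons (edgeR adjusted p under 0.05). In the second 10.6% rose and 15.1% fell, and in the third 18.4% rose and 21.1% fell. The same shares are the background for the marker counts that follow. Transcripts of stromal markers were also present. The summed level of 10 stromal markers was 586 and 657 CPM with LCL161 plus LTα1β2, 2190 and 3100 CPM with LTα1β2 alone, and 8260 and 5510 CPM with vehicle, and 7 of the 9 that could be tested fell in each of the 3 comparisons. Those 7 (Col1a1, Col1a2, Col3a1, Pdgfra, Pdgfrb, Postn and Sparc) had vehicle means of 17.7 CPM for Pdgfra to 2220 CPM for Col1a1. The other 3, Lum, Dcn and Thy1, were near 0, at mean levels of 0.073, 0.636 and 1.31 CPM with LCL161 plus LTα1β2, 0.0586, 0.507 and 0.442 CPM with LTα1β2 alone, and 0.123, 0.459 and 0.772 CPM with vehicle. Fewer cells of a type and less RNA per cell cannot be told apart in these bulk samples. Summed adipocyte markers were at 1.97 and 1.91 CPM, 2.23 and 1.82 CPM, and 8.47 and 3.08 CPM in the same order of groups. Most of the vehicle sums came from Plin4 (7.45 and 2.59 CPM). Plin4, 1 of the 2 that could be tested, fell with LCL161 plus LTα1β2 against vehicle. The other, Lep, averaged 1.11 CPM with LCL161 plus LTα1β2 and 0.243 CPM with vehicle and was not called. Cfd, 1 of the 6, had no reads in any library. Summed osteoblast markers were 6.79 and 7.2 CPM with LCL161 plus LTα1β2, 12.7 and 18.9 CPM with LTα1β2 alone, and 89.2 and 34.1 CPM with vehicle. Summed neutrophil markers, most of the sum from Ngp, were 61.4 and 79.2 CPM with LCL161 plus LTα1β2, 294 and 225 CPM with LTα1β2 alone, and 161 and 263 CPM with vehicle. Of these 5 markers, 1 rose and none fell with LTα1β2 alone against vehicle. Between the treated groups 2 fell, and 1 rose and 3 fell with LCL161 plus LTα1β2 against vehicle. Ly6g averaged 0.711 CPM with LCL161 plus LTα1β2, 0.874 CPM with LTα1β2 alone and 0.174 CPM with vehicle.

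**Figure D1:**
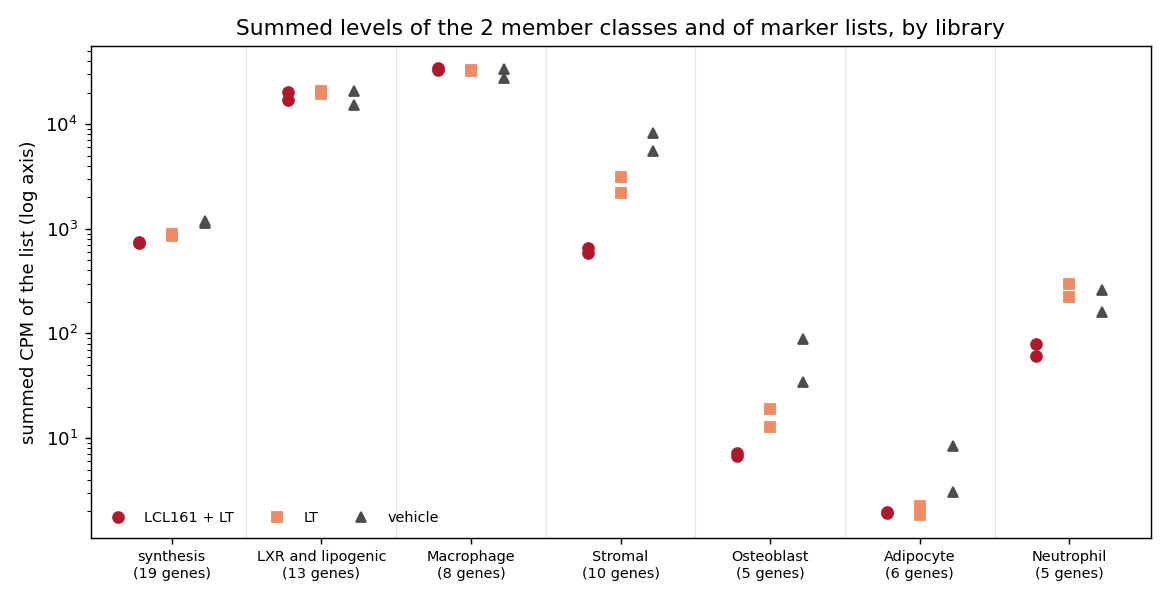
Summed CPM (log axis) of the 19 synthesis genes, the 13 LXR and lipogenic genes and 5 marker lists in each of the 6 libraries, with LCL161 plus LTα1β2 at the left of each set, LTα1β2 alone in the middle and vehicle at the right. The synthesis sum was 740 and 746 CPM with LCL161 plus LTα1β2 against 1150 and 1200 CPM with vehicle, and the stromal sum was 586 and 657 CPM against 8260 and 5510 CPM in the same groups.

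Cells make cholesterol from acetyl-CoA through mevalonate, isoprenoid diphosphates, squalene and lanosterol. When membranes of the endoplasmic reticulum are low in cholesterol, the transcription factor SREBP2 is released from its retention by Insig proteins, moves to the Golgi, is cleaved there and raises transcription of nearly every enzyme of this route. When cholesterol is abundant, its oxidised forms activate the liver X receptors (LXR), nuclear receptors that pair with retinoid X receptors and raise the export pumps Abca1 and Abcg1, apolipoprotein E and, through Srebf1, the enzymes of fatty acid synthesis. In macrophages, which take up lipoproteins and dead cells, this second arm is known for moving excess cholesterol out of the cell.

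The classes are named after SREBP2 and LXR, and control of the members by these factors was not tested here. The promoter windows that hold the letters searched for as an SREBP or LXR-type element are shown. RefSeq promoter windows (GRCm38.p6, 250 bases before to 50 after a gene's start) matched 15 of the 19 synthesis genes and 9 of the 13 LXR and lipogenic genes; Fdps, Fdft1, Sqle, Stard4, Abcg1, Scd1, Scd2 and Apoc1 had no entry there. The sterol regulatory element TCACNCCAC, searched on both strands, was found in the window of Hmgcs1, 137 bases before the start, in 1 of the 15 synthesis genes and none of the 9 others, against 1.44% of 27025 genes. An element of the direct-repeat type bound by LXR, searched on either strand as GGTNA followed after 5 bases by GGTNA again, was found for Abca1, Srebf1 and Fasn, 3 of the 9, and for none of the 15, against 0.818% of all genes. CCAAT, the box bound by NF-Y, which acts beside SREBP, stood in a window of all 15 synthesis genes and of 5 of the 9 others, against 41.1% of all genes. Capitals mark the SREBP element in the first sequence and the LXR-type element, here as the reverse complement of the searched letters, in the other 3. The windows lie at chr13:119690101-119690400 on the plus strand for Hmgcs1, chr4:53159846-53160145 on the minus strand for Abca1, chr11:60210422-60210721 on the minus strand for an internal start of Srebf1, and chr11:120824498-120824797 on the minus strand for Fasn, and each is written from 5′ to 3′ along its gene.
Hmgcs1: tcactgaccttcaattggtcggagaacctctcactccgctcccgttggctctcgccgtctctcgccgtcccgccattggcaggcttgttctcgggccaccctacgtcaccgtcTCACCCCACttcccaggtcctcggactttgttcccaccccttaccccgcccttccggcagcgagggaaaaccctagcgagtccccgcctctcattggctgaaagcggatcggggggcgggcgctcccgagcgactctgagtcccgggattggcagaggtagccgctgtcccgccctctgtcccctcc
Abca1: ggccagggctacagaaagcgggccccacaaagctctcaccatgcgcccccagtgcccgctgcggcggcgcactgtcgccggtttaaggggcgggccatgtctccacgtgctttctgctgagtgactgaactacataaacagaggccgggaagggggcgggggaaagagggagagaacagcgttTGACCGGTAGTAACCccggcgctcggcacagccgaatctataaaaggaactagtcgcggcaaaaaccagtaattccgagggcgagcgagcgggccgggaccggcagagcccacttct
Srebf1: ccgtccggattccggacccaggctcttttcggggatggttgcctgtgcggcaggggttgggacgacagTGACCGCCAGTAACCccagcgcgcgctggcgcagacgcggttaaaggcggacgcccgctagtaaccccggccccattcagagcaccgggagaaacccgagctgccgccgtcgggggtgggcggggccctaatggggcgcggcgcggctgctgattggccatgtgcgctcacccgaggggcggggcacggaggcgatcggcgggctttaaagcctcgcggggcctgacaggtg
Fasn: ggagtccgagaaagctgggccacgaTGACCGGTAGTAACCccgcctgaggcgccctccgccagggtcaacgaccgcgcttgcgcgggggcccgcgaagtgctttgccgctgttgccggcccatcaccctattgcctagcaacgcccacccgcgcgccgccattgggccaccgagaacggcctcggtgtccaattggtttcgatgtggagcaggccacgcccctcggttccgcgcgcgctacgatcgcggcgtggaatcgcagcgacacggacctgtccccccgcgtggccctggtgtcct
These matches describe letters in the window only. Windows without the searched letters were not examined for other forms of these elements. The part of the LXR-type element in the values of Abca1, Srebf1 and Fasn was not tested. For Srebf1 the element lies at an internal start, and gene counts do not separate the transcripts from its starts.

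Most cholesterol synthesis genes were lower than with vehicle in both treated groups, 17 of 19 with LCL161 plus LTα1β2 and 15 of 19 with LTα1β2 alone counting every fitted value. Median log2 changes over all genes were 0.047 and -0.039 there, so a lower value by sign alone was common. Members that changed little are counted too, such as Nsdhl with LCL161 plus LTα1β2 (-0.04, edgeR adjusted p = 0.816). Pmvk with LTα1β2 alone is another (-0.047, edgeR adjusted p = 0.842). With LTα1β2 alone against vehicle, 9 of the 19 fell (Hmgcs1, Idi1, Fdft1, Sqle, Cyp51, Msmo1, Hsd17b7, Sc5d and Insig1) and Ebp rose, where a gene is said to have risen or fallen if edgeR's quasi-likelihood test gave an adjusted p under 0.05 over all genes. Of all genes tested in that comparison 23.4% were called, 10.6% lower and 12.8% higher. The median log2 change of the class was -0.33, against -0.039 over all genes. With LCL161 plus LTα1β2 against LTα1β2 alone, 6 of the 19 fell (Fdps, Fdft1, Sqle, Cyp51, Dhcr7 and Stard4) and Mvd rose, against 25.7% of all genes called, 15.1% lower and 10.6% higher, and the class median was -0.28 against 0.0045 over all genes. With LCL161 plus LTα1β2 against vehicle, 14 of the 19 fell and Mvd rose, against 39.5% of all genes called, 21.1% lower and 18.4% higher, with a class median of -0.60 against 0.047 over all genes. Both libraries of 1 group lay on the same side of both libraries of the other for 63.4% of all genes in the first comparison, 67.8% in the second and 73.8% in the third, the background for statements that groups did not overlap. The 3 comparisons share libraries and are therefore not independent of each other.

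The counts in the first 2 comparisons depend on single libraries. For LTα1β2 alone against vehicle, 10 of the 19 synthesis genes were called, and 7 without LTα1β2 replicate 1, 5 without LTα1β2 replicate 2, 7 without vehicle replicate 1, or 6 without the other vehicle library. The count over all genes went from 4401 to 2457, 2499, 1930 and 2807 in the same order. For LCL161 plus LTα1β2 against LTα1β2 alone, 7 were called, and 4 without LCL161 plus LTα1β2 replicate 1, 4 without LTα1β2 replicate 1 and 1 (Dhcr7) without LTα1β2 replicate 2, where the count over all genes went from 4832 to 2332. For LCL161 plus LTα1β2 against vehicle 15 were called, and 12 to 15 with any of the 6 libraries left out, although the count over all genes went from 7431 to 4885 without vehicle replicate 1. Scaling by total counts in place of TMM factors moved the median log2 change of all genes to -0.23, -0.12 and -0.26 in the 3 comparisons and the share of higher genes among those called to 33%, 28% and 24.6%, against 54.8%, 41.2% and 46.6% with TMM factors. The class medians were then -0.52, -0.40 and -0.92, and 13, 8 and 16 synthesis genes fell. By DESeq2 the share of higher genes among those called was 58.6%, 26.4% and 35.8%, with 8, 6 and 14 synthesis genes called, all lower. No filter beyond 1 read moved the median log2 change of the 18812 genes to 0.043, -0.133 and -0.009. The share of higher genes among those called was then 62.6%, 35% and 49.5%, and 9, 10 and 15 synthesis genes were called.

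**Figure D2:**
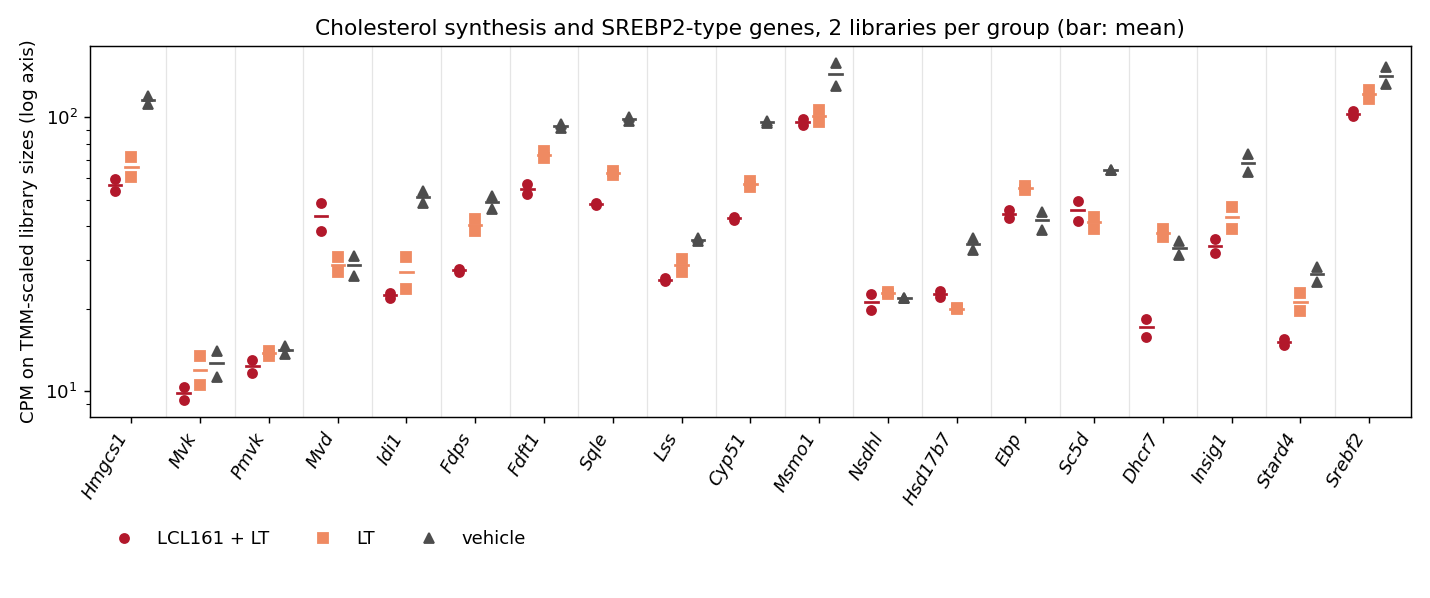
CPM (log axis) of the 19 synthesis and SREBP2-type genes in every library, in pathway order, with both libraries of LCL161 plus LTα1β2 at the left of each gene, LTα1β2 alone in the middle, vehicle at the right, and a bar at each group mean. Sqle is lowest with LCL161 plus LTα1β2 (47.9 and 48.7 CPM, against 99.8 and 96.8 CPM with vehicle), whereas Mvd is highest with LCL161 plus LTα1β2.

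In the mevalonate segment, which runs to farnesyl diphosphate, the entry and the isoprenoid steps were lower and the kinases were not called. Hmgcs1, the synthase that makes HMG-CoA, lies on chromosome 13 at 119690379 to 119708260 (GRCm38, GENCODE M21). Hmgcs1 had 59.5 and 53.6 CPM with LCL161 plus LTα1β2, 71.6 and 60.3 CPM with LTα1β2 alone, and 112 and 120 CPM with vehicle. Both treated groups lay below vehicle, by a log2 change of -1.03 ± 0.12 (SE) with LCL161 plus LTα1β2 (edgeR adjusted p = 0.000353) and -0.81 ± 0.12 with LTα1β2 alone (adjusted p = 0.00281). The difference between the treated groups of -0.22 ± 0.12 did not pass (adjusted p = 0.207). Idi1, the isomerase that makes dimethylallyl diphosphate, had 22.9 and 21.9 CPM with LCL161 plus LTα1β2, 30.9 and 23.6 CPM with LTα1β2 alone, and 48.5 and 54 CPM with vehicle. Its log2 change was -1.19 ± 0.15 with LCL161 plus LTα1β2 and -0.91 ± 0.15 with LTα1β2 alone against vehicle (edgeR adjusted p = 0.000548 and 0.00445). These were the largest decreases among the 19 genes in these comparisons. The treated groups differed by -0.28 ± 0.15 (adjusted p = 0.202). Counts of Idi1 were not whole in any library. Fdps, farnesyl diphosphate synthase, had 28 and 27.3 CPM with LCL161 plus LTα1β2, 38.5 and 42.6 CPM with LTα1β2 alone, and 46.1 and 51.8 CPM with vehicle. Here LCL161 plus LTα1β2 stood below LTα1β2 alone (log2 -0.55 ± 0.12, edgeR adjusted p = 0.012, but 0.075 without LTα1β2 replicate 2). It also stood below vehicle (-0.82 ± 0.12, adjusted p = 0.000973). The change of -0.27 ± 0.11 with LTα1β2 alone against vehicle passed under total-count scaling (adjusted p = 0.02) but not with TMM factors (0.131). Exons of Fdps overlap those of a predicted gene on the same strand.

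Mvd, mevalonate diphosphate decarboxylase, was higher with LCL161 plus LTα1β2. It lies on chromosome 8 at 122433601 to 122443422. Mvd had 38.5 and 48.5 CPM with LCL161 plus LTα1β2, 27.2 and 30.8 CPM with LTα1β2 alone, and 26.4 and 31.2 CPM with vehicle. Both libraries with LCL161 plus LTα1β2 were above all others, and those of LTα1β2 alone and vehicle overlapped. The log2 change was 0.58 ± 0.15 against LTα1β2 alone and 0.59 ± 0.15 against vehicle (edgeR adjusted p = 0.0287 and 0.0175). The first call was lost with an adjusted p of 0.0804 by DESeq2, 0.155 without LCL161 plus LTα1β2 replicate 2, 0.164 without LTα1β2 replicate 1, 0.105 without LTα1β2 replicate 2, 0.0574 without vehicle replicate 1 or 0.0592 without vehicle replicate 2. The second was lost with 0.123 under total-count scaling, 0.0603 by DESeq2, 0.124 without LCL161 plus LTα1β2 replicate 2, 0.17 without vehicle replicate 1 or 0.0501 without vehicle replicate 2. The log2 change without LCL161 plus LTα1β2 replicate 2, the higher library, was 0.34 and 0.35. Mevalonate kinase and phosphomevalonate kinase, encoded by Mvk and Pmvk, were at 9.27 to 14 and 11.7 to 14.6 CPM over the 6 libraries and were not called in any comparison. Their changes with LCL161 plus LTα1β2 against vehicle had 95% intervals of -0.79 to 0.065 and -0.51 to 0.11 on the log2 scale. Both passed under total-count scaling (log2 changes -0.67 and -0.51, edgeR adjusted p = 0.0198 and 0.0141), where all genes had a median of -0.26.

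The enzymes that commit farnesyl diphosphate to sterols were lowest with LCL161 plus LTα1β2. Sqle, squalene epoxidase, a rate-limiting enzyme of the route, lies on chromosome 15 at 59315077 to 59331192. Sqle had 47.9 and 48.7 CPM with LCL161 plus LTα1β2, 61.6 and 63.6 CPM with LTα1β2 alone, and 99.8 and 96.8 CPM with vehicle. The 3 groups did not overlap. Its log2 change was -1.02 ± 0.092 with LCL161 plus LTα1β2 and -0.65 ± 0.091 with LTα1β2 alone against vehicle, and -0.37 ± 0.092 between the treated groups (edgeR adjusted p = 9.06e-05, 0.00224 and 0.0227). The last call was lost with an adjusted p of 0.0727 without LCL161 plus LTα1β2 replicate 1 or 0.108 without LTα1β2 replicate 2. Fdft1, squalene synthase, had 52.6 and 57 CPM with LCL161 plus LTα1β2, 75 and 70.8 CPM with LTα1β2 alone, and 91.3 and 94.5 CPM with vehicle. Those groups also stood apart, with log2 changes of -0.76 ± 0.098 and -0.35 ± 0.096 against vehicle and -0.41 ± 0.098 between the treated groups (edgeR adjusted p = 0.000596, 0.0354 and 0.0195). For LTα1β2 alone against vehicle its adjusted p was 0.341 with no filter beyond 1 read, 0.089 by DESeq2, 0.196 without LTα1β2 replicate 1, 0.191 without LTα1β2 replicate 2, 0.153 without vehicle replicate 1 or 0.184 without vehicle replicate 2. Between the treated groups it was 0.0784 without LCL161 plus LTα1β2 replicate 1, 0.062 without LTα1β2 replicate 1 or 0.0628 without LTα1β2 replicate 2. Exons of Fdft1 overlap those of the cathepsin gene Ctsb on the other strand, so its count is uncertain if strand was not used. Lss, lanosterol synthase, had 25.8 and 25.3 CPM with LCL161 plus LTα1β2, 27.2 and 30.5 CPM with LTα1β2 alone, and 36.3 and 35.2 CPM with vehicle. It fell with LCL161 plus LTα1β2 against vehicle (-0.48 ± 0.11, edgeR adjusted p = 0.0117, 0.0611 without vehicle replicate 1). Its change of -0.31 ± 0.11 with LTα1β2 alone did not pass (adjusted p = 0.0846, 0.0177 under total-count scaling).

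Past lanosterol, Cyp51 and Dhcr7, at the start and the end of the remaining route, were both lowest with LCL161 plus LTα1β2. Cyp51, the lanosterol demethylase, had 43.2 and 42.3 CPM with LCL161 plus LTα1β2, 58.5 and 55.5 CPM with LTα1β2 alone, and 97 and 95.2 CPM with vehicle. Its 3 groups did not overlap, with log2 changes of -1.17 ± 0.094 and -0.75 ± 0.092 against vehicle and -0.41 ± 0.094 between the treated groups (edgeR adjusted p = 4.97e-05, 0.00124 and 0.0162). Between the treated groups the adjusted p was 0.0528 without LTα1β2 replicate 1 or 0.0538 without LTα1β2 replicate 2. Exons of Cyp51 overlap those of Akap9 on the other strand. Dhcr7, the reductase that yields cholesterol from its last precursor, lies on chromosome 7 at 143823145 to 143848410. Dhcr7 had 15.8 and 18.4 CPM with LCL161 plus LTα1β2, 39.2 and 36.6 CPM with LTα1β2 alone, and 31.5 and 35.2 CPM with vehicle. The log2 change was -1.15 ± 0.13 against LTα1β2 alone, -0.96 ± 0.13 against vehicle and 0.18 ± 0.12 with LTα1β2 alone against vehicle (edgeR adjusted p = 0.000738, 0.00076 and 0.34). The calls against LTα1β2 alone and against vehicle held in all 12 alternatives.

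Among the remaining enzymes past lanosterol, Msmo1, a sterol methyl oxidase, had 93.8 and 98.7 CPM with LCL161 plus LTα1β2, 106 and 96.4 CPM with LTα1β2 alone, and 130 and 158 CPM with vehicle. Hsd17b7, which reduces the sterol ketone left by demethylation, had 23.3 and 22.1 CPM with LCL161 plus LTα1β2, 20.1 and 19.9 CPM with LTα1β2 alone, and 36.2 and 32.9 CPM with vehicle. For Sc5d, which desaturates lathosterol, the values were 49.6 and 41.8 CPM with LCL161 plus LTα1β2, 43.4 and 39.2 CPM with LTα1β2 alone, and 64 and 64.3 CPM with vehicle. In all 3, vehicle stood above both treated groups, and between the treated groups none was called. Against vehicle, Msmo1 changed by -0.58 ± 0.12 with LCL161 plus LTα1β2 and -0.51 ± 0.12 with LTα1β2 alone (edgeR adjusted p = 0.00699 and 0.0206). Hsd17b7 changed by -0.60 ± 0.11 and -0.79 ± 0.11 in the same comparisons (edgeR adjusted p = 0.00444 and 0.00272). For Sc5d these changes were -0.49 ± 0.12 and -0.63 ± 0.12 (edgeR adjusted p = 0.0141 and 0.00801). Between the treated groups the 95% intervals were -0.35 to 0.21, -0.088 to 0.46 and -0.13 to 0.42. With LTα1β2 alone, the adjusted p of Msmo1 was 0.101 without LTα1β2 replicate 1, 0.128 without LTα1β2 replicate 2 or 0.127 without vehicle replicate 2. That of Sc5d was 0.0573 without LTα1β2 replicate 2 or 0.0504 without vehicle replicate 1. Counts of Msmo1 were not whole in any library. Ebp, the sterol isomerase, had 42.8 and 46 CPM with LCL161 plus LTα1β2, 56 and 54.2 CPM with LTα1β2 alone, and 38.8 and 45.2 CPM with vehicle. It rose with LTα1β2 alone (0.39 ± 0.11, edgeR adjusted p = 0.0425). This call was lost with an adjusted p of 0.187 under total-count scaling, 0.124 by DESeq2, 0.123 without LTα1β2 replicate 1, 0.151 without LTα1β2 replicate 2, 0.332 without vehicle replicate 1 or 0.074 without vehicle replicate 2. With LCL161 plus LTα1β2 against LTα1β2 alone its change of -0.31 ± 0.11 did not pass (0.0825, but 0.0186 under total-count scaling or 0.0236 with no filter beyond 1 read). Nsdhl, a sterol dehydrogenase, was at 19.8 to 23.1 CPM in the 6 libraries and was not called, with a 95% interval of -0.32 to 0.24 for LCL161 plus LTα1β2 against vehicle.

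The regulators of the route were lowest with LCL161 plus LTα1β2. Insig1, which holds SREBP proteins in the endoplasmic reticulum and is itself an SREBP target, lies on chromosome 5 at 28071363 to 28078662. Insig1 had 31.9 and 35.8 CPM with LCL161 plus LTα1β2, 47.1 and 39.2 CPM with LTα1β2 alone, and 62.9 and 73.6 CPM with vehicle. Every treated library was below both vehicle libraries, with log2 changes of -1.01 ± 0.14 and -0.66 ± 0.14 against vehicle (edgeR adjusted p = 0.00084 and 0.0119). The treated groups differed by -0.35 ± 0.14 (adjusted p = 0.101, but 0.0274 under total-count scaling or 0.0124 with no filter beyond 1 read). With LTα1β2 alone the call was lost at an adjusted p of 0.0863 without LTα1β2 replicate 2 or 0.0827 without vehicle replicate 2. Stard4, a carrier that moves cholesterol between membranes, had 14.7 and 15.5 CPM with LCL161 plus LTα1β2, 19.7 and 22.8 CPM with LTα1β2 alone, and 28.5 and 25.1 CPM with vehicle. It fell with LCL161 plus LTα1β2 against vehicle (-0.83 ± 0.14, edgeR adjusted p = 0.00218). Against LTα1β2 alone it also fell (-0.50 ± 0.14, adjusted p = 0.0338, but 0.0501 with only the compared groups in the fit, 0.0984 without LCL161 plus LTα1β2 replicate 1 or 0.183 without LTα1β2 replicate 2). With LTα1β2 alone its change of -0.33 ± 0.13 passed only under total-count scaling (adjusted p = 0.0269, against 0.116 with TMM factors). Srebf2, which encodes SREBP2, lies on chromosome 15 at 82147181 to 82205379. Srebf2 had 105 and 101 CPM with LCL161 plus LTα1β2, 117 and 126 CPM with LTα1β2 alone, and 152 and 132 CPM with vehicle. It fell with LCL161 plus LTα1β2 against vehicle, with a log2 change of -0.46 ± 0.10 (edgeR adjusted p = 0.0105, but 0.0572 without vehicle replicate 1). The changes of -0.23 ± 0.10 with LTα1β2 alone and -0.23 ± 0.11 between the treated groups did not pass (0.159 and 0.143). The first passed under total-count scaling (0.0312) and the second with no filter beyond 1 read (0.0452).

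A further list covered other genes of the synthesis route and of SREBP control. Of 9 (Acat2, Tm7sf2, Lbr, Ggps1, Tmem97, Insig2, Scap, Mbtps1 and Mbtps2), 2 fell and Tm7sf2 rose with LTα1β2 alone against vehicle, 3 fell with LCL161 plus LTα1β2 against LTα1β2 alone, and 5 fell with LCL161 plus LTα1β2 against vehicle, with medians of -0.18, -0.32 and -0.38. Thus 3, 3 and 5 of 9 were called, beside 23.4%, 25.7% and 39.5% of all genes, and the shares in the first 2 comparisons are close to that background. The rise of Tm7sf2 was at the threshold (edgeR adjusted p = 0.0495). Lbr, a lamin receptor that is also a sterol reductase, had 22 and 27 CPM with LCL161 plus LTα1β2, 54.6 and 52.1 CPM with LTα1β2 alone, and 68.9 and 66.2 CPM with vehicle. It was lowest with LCL161 plus LTα1β2, with log2 changes of -1.12 ± 0.12 against LTα1β2 alone and -1.46 ± 0.12 against vehicle (edgeR adjusted p = 0.000692 and 6.84e-05). Acat2, the thiolase that makes acetoacetyl-CoA for the route, had 16.3 and 14.1 CPM with LCL161 plus LTα1β2, 18.8 and 19.3 CPM with LTα1β2 alone, and 30.8 and 29.4 CPM with vehicle. It fell against vehicle in both treated groups (-0.98 ± 0.13 and -0.66 ± 0.12, edgeR adjusted p = 0.000607 and 0.00799). Mbtps1, the protease that makes the initial cut in SREBP proteins, had 74.9 and 76.7 CPM with LCL161 plus LTα1β2, 96.6 and 107 CPM with LTα1β2 alone, and 125 and 112 CPM with vehicle. Mbtps1 fell with LCL161 plus LTα1β2 (-0.42 ± 0.10 against LTα1β2 alone and -0.65 ± 0.10 against vehicle, edgeR adjusted p = 0.0227 and 0.00201).

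The 7 stromal markers that fell did so by more than any synthesis gene in each comparison. Col1a1, a collagen gene of stromal cells, averaged 170 CPM with LCL161 plus LTα1β2, 784 CPM with LTα1β2 alone and 2220 CPM with vehicle. Its log2 changes were -2.21 ± 0.26 against LTα1β2 alone and -3.71 ± 0.28 against vehicle, and -1.50 ± 0.25 with LTα1β2 alone against vehicle (edgeR adjusted p = 0.000903, 3.36e-05 and 0.0053). The part of stromal cells in the lower sterol synthesis genes was not tested.

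Of the 13 LXR and lipogenic genes, 3 rose and 4 fell with LCL161 plus LTα1β2 against vehicle, and 6 were called in no comparison. With LTα1β2 alone against vehicle, Abcg1 rose and Abca9, Scd1, Scd2 and Fasn fell, 5 of 13 against 23.4% of all genes called, with a class median of -0.055 against -0.039 over all genes. With LCL161 plus LTα1β2 against LTα1β2 alone, Nr1h3 and Abca1 rose and Abca9, Scd1, Scd2, Fasn and Abcg1 fell, 7 of 13 against 25.7% of all genes, with a median of -0.32 against 0.0045. Against vehicle, Nr1h3, Abca1 and Abcg1 rose with LCL161 plus LTα1β2 and Abca9, Scd1, Scd2 and Fasn fell, 7 of 13 against 39.5% of all genes, with a median of -0.16 against 0.047. Without LTα1β2 replicate 1 the first count was 3, with Scd2 and Fasn not called. Apolipoprotein E, Apoc1, Pltp, Mylip, Lpcat3 and Srebf1, also known as LXR targets, passed in none of the 3.

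**Figure D3:**
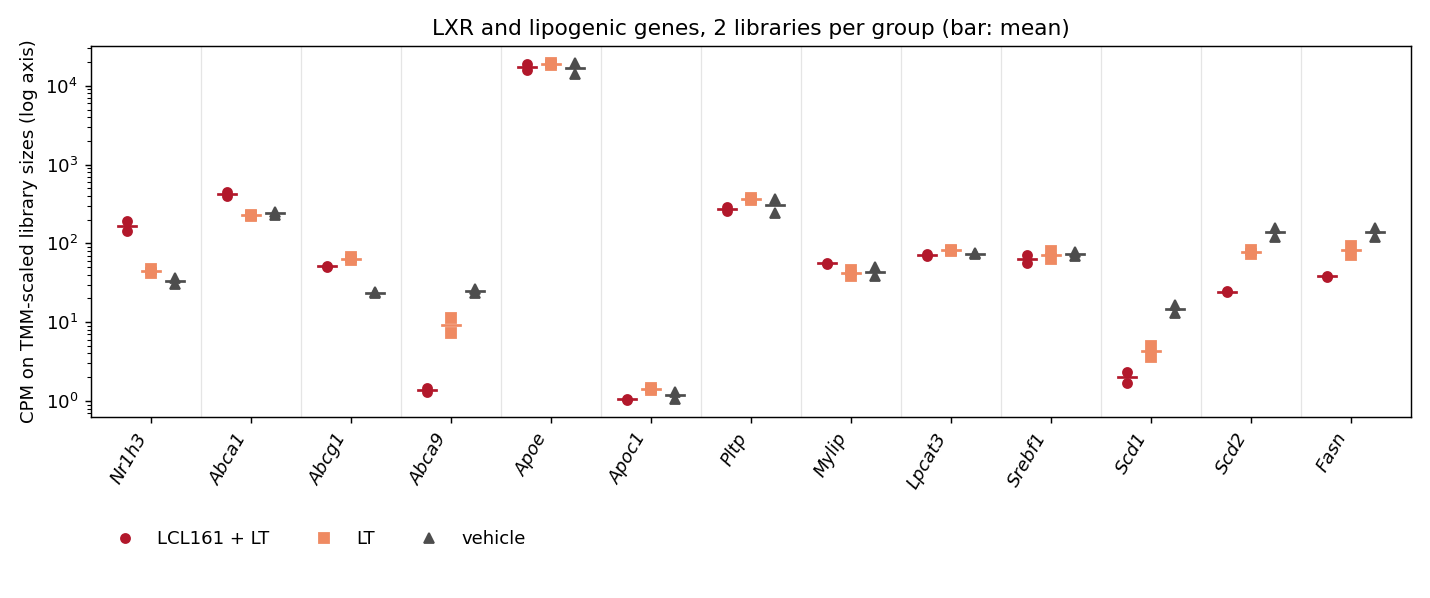
CPM (log axis) of the 13 LXR and lipogenic genes in every library, with LCL161 plus LTα1β2 at the left of each gene, LTα1β2 alone in the middle, vehicle at the right, and a bar at each group mean. Nr1h3 is highest with LCL161 plus LTα1β2 (143 and 193 CPM, against 30.7 and 36.3 CPM with vehicle), Scd2 is lowest there (24.2 and 24.7 CPM, against 157 and 121 CPM), and Apoe lies at 14300 CPM or more in all 6 libraries.

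The receptor gene and both main export pumps rose with LCL161 plus LTα1β2 against vehicle. Nr1h3, which encodes LXRα, lies on chromosome 2 at 91184061 to 91202834. Nr1h3 had 143 and 193 CPM with LCL161 plus LTα1β2, 42.1 and 47 CPM with LTα1β2 alone, and 30.7 and 36.3 CPM with vehicle. The libraries with LCL161 plus LTα1β2 were far above the rest, with a log2 change of 1.91 ± 0.17 against LTα1β2 alone and 2.32 ± 0.17 against vehicle (edgeR adjusted p = 0.000259 and 2.81e-05). Both calls held in all 12 alternatives. With LTα1β2 alone against vehicle the change of 0.41 ± 0.16 did not pass (0.113), but the adjusted p was 0.00729 with no filter beyond 1 read, 0.03 with only the compared groups in the fit, 0.0382 without LCL161 plus LTα1β2 replicate 1 or 0.0437 without LCL161 plus LTα1β2 replicate 2. Exons of Nr1h3 overlap those of Gm13783, a predicted gene, on the same strand. Abca1, the pump that passes cholesterol and phospholipid to lipid-poor apolipoproteins, lies on chromosome 4 at 53030787 to 53159895. Abca1 had 454 and 395 CPM with LCL161 plus LTα1β2, 231 and 223 CPM with LTα1β2 alone, and 249 and 232 CPM with vehicle. The LCL161 libraries were above all others. Its log2 change was 0.90 ± 0.10 against LTα1β2 alone and 0.82 ± 0.10 against vehicle (edgeR adjusted p = 0.00085 and 0.000583). With LTα1β2 alone the 95% interval of the change was -0.32 to 0.16. Abcg1, the pump that passes cholesterol to mature lipoprotein particles, lies on chromosome 17 at 31057675 to 31117988. Abcg1 had 51.9 and 50.6 CPM with LCL161 plus LTα1β2, 66.3 and 61.9 CPM with LTα1β2 alone, and 23.3 and 24.2 CPM with vehicle. It rose with LTα1β2 alone, by 1.43 ± 0.10 against vehicle (edgeR adjusted p = 7.88e-05). LCL161 plus LTα1β2 stood 1.11 ± 0.10 above vehicle (0.000103). Its decrease of -0.32 ± 0.099 between the treated groups was at the threshold (edgeR adjusted p = 0.0495). Its adjusted p ran from 0.0175 to 0.12 over the 12 alternatives. The call was lost with relative log expression factors, with only the compared groups in the fit and without any 1 of the 6 libraries (0.0687 to 0.12).

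Abca9, a transporter of the same subfamily as Abca1 that responds to cholesterol in human macrophages, lies on chromosome 11 at 110100749 to 110168196. Abca9 had 1.31 and 1.46 CPM with LCL161 plus LTα1β2, 11.2 and 7.32 CPM with LTα1β2 alone, and 23.1 and 26.1 CPM with vehicle. The 3 groups were apart. Log2 changes were -4.14 ± 0.26 with LCL161 plus LTα1β2 and -1.41 ± 0.20 with LTα1β2 alone against vehicle, and -2.73 ± 0.28 between the treated groups (edgeR adjusted p = 1.54e-05, 0.00272 and 0.000455). These changes rest on 18 and 19 reads with LCL161 plus LTα1β2, 176 and 137 reads with LTα1β2 alone and 500 and 482 reads with vehicle. The stromal marker sum moved the same way over these groups, as given above, and its part in the Abca9 values was not tested.

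Secreted lipid carriers and membrane remodelling genes did not pass. Apoe, apolipoprotein E, the main lipid carrier that macrophages secrete, lies on chromosome 7 at 19696109 to 19699188. Apoe had 15800 and 19200 CPM with LCL161 plus LTα1β2, 19600 and 18500 CPM with LTα1β2 alone, and 14300 and 19500 CPM with vehicle. The groups overlapped in every comparison, and the 95% intervals of its log2 changes were -0.35 to 0.45 with LCL161 plus LTα1β2 and -0.23 to 0.58 with LTα1β2 alone against vehicle. Between the treated groups the interval was -0.53 to 0.28. There Apoe passed with no filter beyond 1 read (-0.26, edgeR adjusted p = 0.0325), where all genes had a median of -0.13. Per kilobase of exon it was the most abundant of the 32, at mean levels of 8180 RPKM with LCL161 plus LTα1β2, 8910 RPKM with LTα1β2 alone and 7910 RPKM with vehicle. Mean levels of the 19 synthesis genes were 2.37 to 23.4, 2.67 to 23.8 and 3.32 to 25.2 RPKM in these groups. Apoc1, a smaller apolipoprotein from the same gene cluster, was barely detected, with 14 and 14 reads with LCL161 plus LTα1β2, 23 and 26 reads with LTα1β2 alone, and 23 and 23.5 reads with vehicle. At that depth its 95% interval against vehicle, -1.02 to 0.69, is wide, so smaller differences were not detectable. Pltp, phospholipid transfer protein, had 255 and 287 CPM with LCL161 plus LTα1β2, 375 and 357 CPM with LTα1β2 alone, and 245 and 361 CPM with vehicle. The vehicle libraries differed by more than the group means did. Its log2 changes were 0.27 ± 0.17 with LTα1β2 alone against vehicle, -0.43 ± 0.17 between the treated groups and -0.16 ± 0.17 with LCL161 plus LTα1β2 against vehicle (edgeR adjusted p = 0.315, 0.106 and 0.489). The first passed in some alternatives, with an adjusted p of 0.0462 with no filter beyond 1 read or 0.03 without vehicle replicate 2. The second passed with 0.0296 under total-count scaling, 7.62e-05 with no filter beyond 1 read, 0.0186 by DESeq2, 0.0245 with only the compared groups in the fit, 0.0186 without vehicle replicate 1 or 0.0195 without vehicle replicate 2. The third, a decrease, passed with 0.0368 under total-count scaling or 0.0345 without vehicle replicate 1. Lpcat3, which places polyunsaturated fatty acids into phospholipids, was at 69.8 to 83.3 CPM in the 6 libraries and passed under total-count scaling only (edgeR adjusted p = 0.0136 with LCL161 plus LTα1β2 against vehicle and 0.0437 against LTα1β2 alone). Exons of Pltp overlap those of Ctsa, and exons of Lpcat3 those of Emg1, both on the other strand. Both counts are uncertain if strand was not used. Mylip, a ubiquitin ligase that removes lipoprotein receptors, had 55.1 and 56.5 CPM with LCL161 plus LTα1β2, 45.6 and 38.8 CPM with LTα1β2 alone, and 38.2 and 49.5 CPM with vehicle. With LCL161 plus LTα1β2 this was a change of 0.40 ± 0.15 against LTα1β2 alone and 0.35 ± 0.15 against vehicle (edgeR adjusted p = 0.0825 and 0.0962).

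The desaturases and fatty acid synthase were lowest with LCL161 plus LTα1β2, and Srebf1 did not pass. Scd1, a stearoyl-CoA desaturase that makes oleate, lies on chromosome 19 at 44394455 to 44407879. Scd1 had 2.33 and 1.68 CPM with LCL161 plus LTα1β2, 3.57 and 4.92 CPM with LTα1β2 alone, and 16.5 and 13.2 CPM with vehicle. The log2 change was -2.88 ± 0.25 with LCL161 plus LTα1β2 and -1.80 ± 0.22 with LTα1β2 alone against vehicle, and -1.08 ± 0.27 between the treated groups (edgeR adjusted p = 7.97e-05, 0.00132 and 0.025). The last was lost with an adjusted p of 0.0766 without LCL161 plus LTα1β2 replicate 2 or 0.129 without LTα1β2 replicate 2. Scd2, the neighbouring desaturase gene on chromosome 19 at 44293674 to 44306864, had 24.2 and 24.7 CPM with LCL161 plus LTα1β2, 74 and 81.9 CPM with LTα1β2 alone, and 157 and 121 CPM with vehicle. Scd2 changed by -2.51 ± 0.15 and -0.83 ± 0.14 against vehicle and -1.68 ± 0.14 between the treated groups (edgeR adjusted p = 1.09e-05, 0.00477 and 0.00026). For LTα1β2 alone the adjusted p was 0.051 without LTα1β2 replicate 1. Both genes are paralogs, and how reads shared by them were counted is not stated. Fasn, fatty acid synthase, lies on chromosome 11 at 120805846 to 120824547. Fasn had 38.4 and 37.7 CPM with LCL161 plus LTα1β2, 70.3 and 93.9 CPM with LTα1β2 alone, and 159 and 122 CPM with vehicle. It changed by -1.89 ± 0.18 and -0.78 ± 0.17 against vehicle and -1.11 ± 0.17 between the treated groups (edgeR adjusted p = 0.000115, 0.0152 and 0.00347). With LTα1β2 alone the adjusted p was 0.119 without LTα1β2 replicate 1 or 0.111 without vehicle replicate 1. In all 3 genes no library of 1 group overlapped another group. The stromal marker sum was lower over the same groups. Of the 6 adipocyte markers, Plin4 was ordered like these genes, at 0 and 0.306 CPM with LCL161 plus LTα1β2, 0.83 and 1.71 CPM with LTα1β2 alone, and 7.45 and 2.59 CPM with vehicle, and fell with LCL161 plus LTα1β2 against vehicle (edgeR adjusted p = 0.00413). Lep, the other that could be tested, was ordered the opposite way, with means of 1.11, 0.351 and 0.243 CPM in these groups, and was not called. Means of Plin1 were 0.188, 0.149 and 0.0733 CPM, and those of Cidec 0.376, 0.191 and 0.243 CPM. For Adipoq they were 0.111, 0.0638 and 0.193 CPM, and Cfd had no reads. The part of either cell type in the values of Scd1, Scd2 and Fasn was not tested.

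Srebf1, which encodes SREBP1, the transcription factor of fatty acid synthesis and itself an LXR target, lies on chromosome 11 at 60199089 to 60222581. Srebf1 had 56.3 and 70.3 CPM with LCL161 plus LTα1β2, 63.6 and 78.9 CPM with LTα1β2 alone, and 69.7 and 78.5 CPM with vehicle. The groups overlapped in all comparisons, with 95% intervals of -0.58 to 0.13 and -0.41 to 0.29 for the log2 change of LCL161 plus LTα1β2 and LTα1β2 alone against vehicle. The decrease with LCL161 plus LTα1β2 passed under total-count scaling (-0.54, edgeR adjusted p = 0.0123, with all genes at a median of -0.26). Gene counts do not separate its transcripts.

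**Figure D4:**
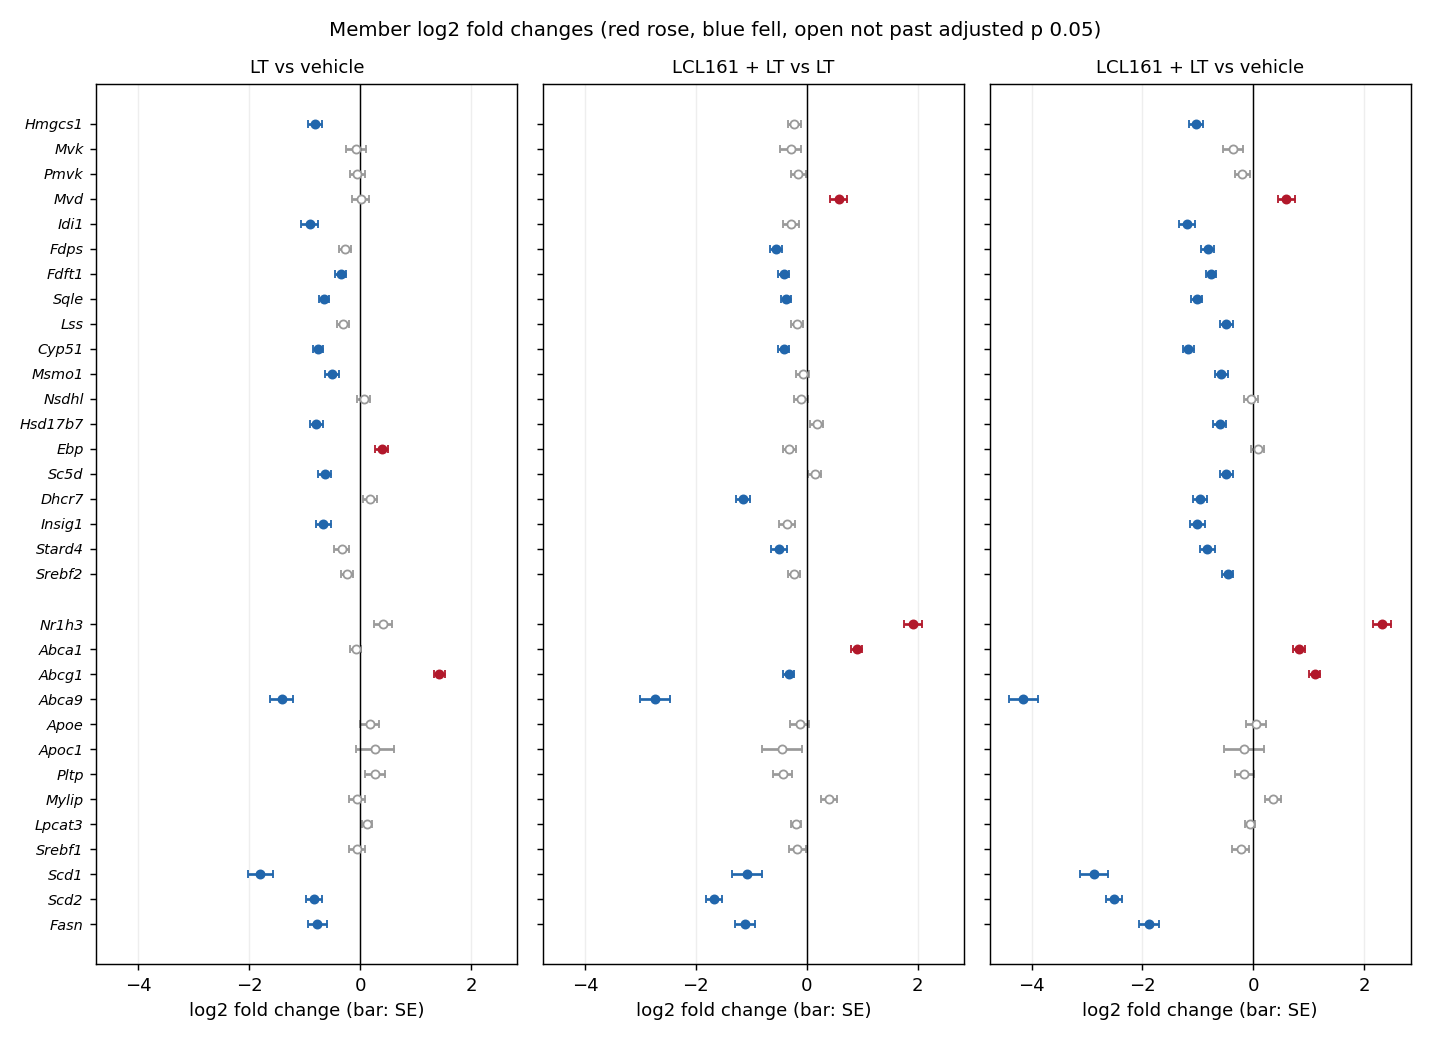
Log2 fold changes with SE bars of the 32 genes in the 3 comparisons, on 1 shared axis, synthesis genes above and LXR and lipogenic genes below, with filled red points for genes that rose, filled blue for genes that fell and open grey for genes that did not pass an edgeR adjusted p of 0.05. In the comparison of LCL161 plus LTα1β2 with vehicle, 14 of 19 synthesis genes are blue, while the lower class runs from Nr1h3 at 2.32 to Abca9 at -4.14.

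A list of other fatty acid synthesis genes was counted in the same way. Of 9 (Acly, Acss2, Acaca, Elovl5, Elovl6, Fads1, Fads2, Me1 and Mid1ip1), 3 fell with LTα1β2 alone against vehicle, 4 fell and Acss2 rose with LCL161 plus LTα1β2 against LTα1β2 alone, and 6 fell and Acss2 rose with LCL161 plus LTα1β2 against vehicle, with medians of -0.17, -0.40 and -0.56. Thus 3, 5 and 7 of 9 were called, beside 23.4%, 25.7% and 39.5% of all genes. Fads2, a desaturase of polyunsaturated fatty acids, had 7.3 and 6.66 CPM with LCL161 plus LTα1β2, 11.8 and 15 CPM with LTα1β2 alone, and 31.9 and 28.3 CPM with vehicle. Elovl6, an elongase of saturated fatty acids, had 2.77 and 2.76 CPM with LCL161 plus LTα1β2, 4.59 and 4.33 CPM with LTα1β2 alone, and 9.17 and 9.84 CPM with vehicle. Both were ordered alike, lowest with LCL161 plus LTα1β2, by -2.11 ± 0.17 and -1.78 ± 0.17 against vehicle (edgeR adjusted p = 4.57e-05 and 0.000146). Acss2, which makes acetyl-CoA from acetate and is a known SREBP target, had 49.5 and 55.8 CPM with LCL161 plus LTα1β2, 22 and 20.9 CPM with LTα1β2 alone, and 15 and 18.5 CPM with vehicle. It was highest with LCL161 plus LTα1β2, by 1.30 ± 0.14 against LTα1β2 alone and 1.65 ± 0.14 against vehicle (edgeR adjusted p = 0.000578 and 6.56e-05), opposite to the other 6 genes called against vehicle.

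A list of further LXR partners and targets held 7 genes. Of these (Nr1h2, Rxra, Rxrb, Apoc2, Arl4c, Smpdl3a and Cd5l), none was called with LTα1β2 alone against vehicle, where edgeR's unadjusted p was under 0.05 for 3 (Nr1h2, Rxra and Cd5l). In that list 5 fell with LCL161 plus LTα1β2 against LTα1β2 alone, and 4 fell and Nr1h2 rose with LCL161 plus LTα1β2 against vehicle. The rise of Nr1h2 was near the threshold (edgeR adjusted p = 0.0465). Over all genes 15.1% fell between the treated groups, and 21.1% fell and 18.4% rose with LCL161 plus LTα1β2 against vehicle. The list medians were 0.24 with LTα1β2 alone against vehicle, -0.83 between the treated groups and -0.56 with LCL161 plus LTα1β2 against vehicle. Cd5l, a secreted macrophage protein known as an LXR target in mice, had 14.8 and 13.7 CPM with LCL161 plus LTα1β2, 58.4 and 50.1 CPM with LTα1β2 alone, and 64.2 and 94.5 CPM with vehicle. Its log2 change was -1.93 ± 0.20 against LTα1β2 alone and -2.47 ± 0.20 against vehicle (edgeR adjusted p = 0.000491 and 5.09e-05). Smpdl3a, a phosphodiesterase known as an LXR target in human macrophages, had 307 and 324 CPM with LCL161 plus LTα1β2, 619 and 502 CPM with LTα1β2 alone, and 412 and 516 CPM with vehicle. Smpdl3a changed by -0.83 ± 0.14 against LTα1β2 alone (edgeR adjusted p = 0.00561). Arl4c, a small GTPase and LXR target, had 8.68 and 9.96 CPM with LCL161 plus LTα1β2, 15.5 and 18.8 CPM with LTα1β2 alone, and 20.9 and 21.2 CPM with vehicle. Arl4c changed by -0.88 ± 0.15 against LTα1β2 alone (edgeR adjusted p = 0.00536). Rxra, a retinoid X receptor that pairs with LXR and was chosen after its values were seen, had 26.8 and 31.4 CPM with LCL161 plus LTα1β2, 52.6 and 60.3 CPM with LTα1β2 alone, and 35.5 and 48.7 CPM with vehicle. Rxra fell, with a log2 change of -0.96 ± 0.17 between the treated groups (edgeR adjusted p = 0.00642).

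**Figure D5:**
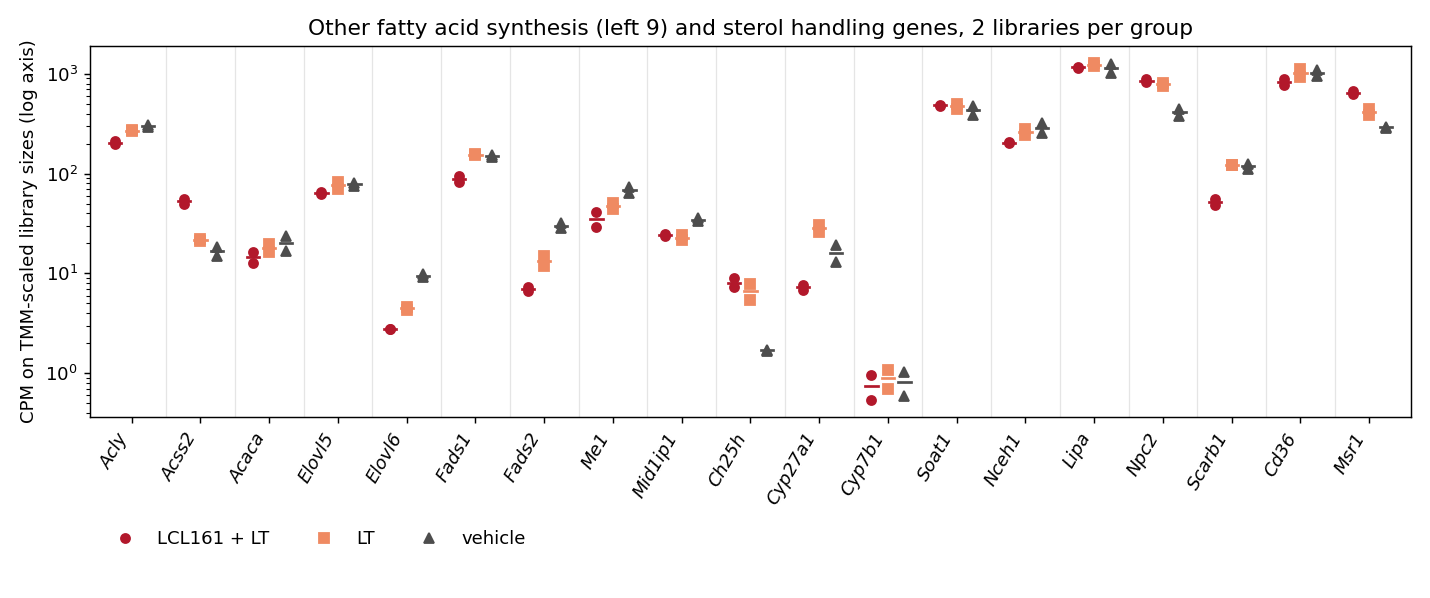
CPM (log axis) of 9 other fatty acid synthesis genes (left) and 10 genes of oxysterols, cholesterol storage and uptake (right) in every library, with LCL161 plus LTα1β2 at the left of each gene, LTα1β2 alone in the middle and vehicle at the right. Acss2 and Msr1 are highest with LCL161 plus LTα1β2, Fads2 and Elovl6 lowest there, and Ch25h is higher in both treated groups than with vehicle (8.9 and 7.28, 5.36 and 7.91, against 1.71 and 1.68 CPM).

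A last list held genes of oxysterols, cholesterol storage and uptake. Of 10 (Ch25h, Cyp27a1, Cyp7b1, Soat1, Nceh1, Lipa, Npc2, Scarb1, Cd36 and Msr1), 4 rose with LTα1β2 alone against vehicle, 1 rose and 2 fell with LCL161 plus LTα1β2 against LTα1β2 alone, and 3 rose and 3 fell with LCL161 plus LTα1β2 against vehicle. Thus 4, 3 and 6 of 10 were called, beside 23.4%, 25.7% and 39.5% of all genes, and the share between the treated groups is close to that background. The list medians were 0.13, -0.18 and -0.048. Msr1, a scavenger receptor for modified lipoproteins, had 667 and 627 CPM with LCL161 plus LTα1β2, 444 and 383 CPM with LTα1β2 alone, and 287 and 296 CPM with vehicle. It rose at each step (0.51 ± 0.10 with LTα1β2 alone against vehicle and 0.65 ± 0.10 with LCL161 plus LTα1β2 against LTα1β2 alone, edgeR adjusted p = 0.0123 and 0.00408). Npc2, which hands lysosomal cholesterol to its membrane exporter, had 826 and 880 CPM with LCL161 plus LTα1β2, 808 and 760 CPM with LTα1β2 alone, and 382 and 441 CPM with vehicle. Both treated groups lay above vehicle, by 1.05 ± 0.11 with LCL161 plus LTα1β2 and 0.93 ± 0.11 with LTα1β2 alone (edgeR adjusted p = 0.000183 and 0.000966). Scarb1, a receptor that exchanges cholesterol with high-density lipoprotein, had 48.2 and 55.7 CPM with LCL161 plus LTα1β2, 122 and 121 CPM with LTα1β2 alone, and 112 and 124 CPM with vehicle. It fell with LCL161 plus LTα1β2 (-1.23 ± 0.11 against LTα1β2 alone, edgeR adjusted p = 0.000303). The enzymes that make oxysterols, chosen after their values were seen, differed from each other. Ch25h, cholesterol hydroxylase, whose product holds back SREBP processing and which interferon induces in mouse macrophages, had 8.9 and 7.28 CPM with LCL161 plus LTα1β2, 5.36 and 7.91 CPM with LTα1β2 alone, and 1.71 and 1.68 CPM with vehicle. Its log2 changes were 2.25 ± 0.26 and 1.97 ± 0.26 against vehicle (edgeR adjusted p = 0.000322 and 0.00161). Between the treated groups the 95% interval was -0.25 to 0.81. Cyp27a1, the mitochondrial sterol hydroxylase whose product activates LXR, had 7.66 and 6.89 CPM with LCL161 plus LTα1β2, 30.9 and 26.2 CPM with LTα1β2 alone, and 12.9 and 19.3 CPM with vehicle. It rose with LTα1β2 alone (0.82 ± 0.20, edgeR adjusted p = 0.0221) and fell with LCL161 plus LTα1β2 against LTα1β2 alone (-1.97 ± 0.22, adjusted p = 0.000671) and against vehicle (-1.14 ± 0.22, adjusted p = 0.00457).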

How the data were processed

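Expected counts per gene, deposited by the authors unnormalised and keyed by symbol for 6 libraries, were used, with 66.6% of the non-zero values whole. STAR 2.7.3a, DESeq2 1.26.0 and GRCm38 were used per the submitters' processing notes; no source used here gives the counting program, annotation, strand setting or treatment of multiply matching reads. Counts were rounded and 18812 genes kept by filterByExpr (minimum 10 reads), with total counts of 14718368 to 19049613. Groups were taken from sample titles. The 3 comparisons were fitted in edgeR 4.0.16 (R 4.3.3) by glmQLFit and glmQLFTest, two-sided, as group means over all 6 libraries with TMM factors and Benjamini-Hochberg adjustment. Genes with an adjusted p under 0.05 were called. The fit had 3 residual and 4.59 prior degrees of freedom and a biological coefficient of variation of 13.6%. The procedure was also run on simulated data, with balanced changes in the LCL161 plus LTα1β2 group only. That run does not bear on the choice of scaling. Each SE was taken as |log2 change| over the root of the F statistic, and 95% intervals use the t distribution on both kinds of degrees of freedom. RPKM divide CPM by union exon length from GENCODE M21 (GRCm38). Overlapping exons of other genes lie on the same strand for 4 members (Fdps, Srebf1, Scd2 and Nr1h3). They lie on the opposite strand for 8 (Hmgcs1, Idi1, Fdft1, Lss, Cyp51, Srebf1, Lpcat3 and Pltp). Alternatives were relative log expression factors, total-count scaling, DESeq2 1.42.0, no filter beyond 1 read, a replicate block, a fit to the compared groups alone, and each library left out, where a lone library is assumed to vary like the other groups. Values in every library are given for members called in at least 1 comparison, and up to 3 genes with the smallest p are named per further list. Members, lists and tests were chosen with earlier results of these data known. Some genes of the pathway are not reported here.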

Additional observations from a re-analysis of the deposited data

How the results depend on the processing

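No called member changed direction under any of the 12 alternatives, and 8 of 15 calls for LTα1β2 alone against vehicle, 6 of 14 for LCL161 plus LTα1β2 against LTα1β2 alone and 19 of 22 for LCL161 plus LTα1β2 against vehicle held in all of them. With 1 library left out, genes called ranged from 1930 to 4933, 2332 to 4604 and 4885 to 7285 in these comparisons, synthesis members called from 5 to 10, 1 to 6 and 12 to 15, and LXR and lipogenic members from 3 to 6 in the first. The cause was not tested. Members with no call changed direction as follows, in log2 units. For LTα1β2 alone against vehicle these were, under total-count scaling, Mvd -0.174, Nsdhl -0.125, Dhcr7 -0.004, Lpcat3 -0.063 and Apoe -0.013, and, with no filter beyond 1 read, Mvk 0.008, Pmvk 0.035, Abca1 at 0, Mylip 0.025 and Srebf1 0.026. With 1 library left out, Mvk ranged from -0.273 to 0.164, Pmvk from -0.099 to 0.058, Mvd from -0.108 to 0.176, Mylip from -0.237 to 0.138, Srebf1 from -0.232 to 0.167 and Apoe from -0.041 to 0.409. For LCL161 plus LTα1β2 against vehicle they were Ebp at -0.231 under total-count scaling and -0.034 by DESeq2, and Apoe at -0.262 under total-count scaling, -0.008 with no filter beyond 1 read and -0.064 by DESeq2. With 1 library left out, Ebp ranged from -0.076 to 0.145, Pltp from -0.465 to 0.099 and Apoe from -0.207 to 0.243, and between the treated groups Sc5d from -0.001 to 0.2.

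The labels do not say that a replicate number marks a shared animal, culture or batch. Deviations of same-numbered libraries correlated at 0.126, 0.133 and -0.032 between the 3 pairs of groups, so pairing was neither given by the labels nor seen in every pair, and the block was kept as an alternative. With the replicate number as a block, genes called were 4144 for LTα1β2 alone against vehicle, 4629 for LCL161 plus LTα1β2 against LTα1β2 alone and 7308 for LCL161 plus LTα1β2 against vehicle, and 8, 6 and 15 synthesis members and 6, 6 and 7 LXR and lipogenic members were called. Under the block Fdft1 (adjusted p = 0.0532) and Ebp (0.0507) were no longer called and Nr1h3 was (0.042) with LTα1β2 alone against vehicle, and Stard4 (0.0515) and Abcg1 (0.0669) were no longer called between the treated groups. A count of 0 allows up to 0.139 to 0.23 CPM in these libraries (3 reads, counting error only).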
